A study of Mus musculus with 20 samples.

Results

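Handling of vitamin E was followed in mouse neocortex through 10 genes chosen by name for their parts in its transport and breakdown. They are Ttpa and Sec14l2, which bind tocopherol inside the cell, Pltp and Lpl, which act on lipoproteins, the receptors Scarb1, Lrp1, Vldlr and Cd36, the enzyme Cyp4f14 and the nuclear receptor Nr1i2. All 10 lay on the array, among 18193 genes that had a probe set naming them alone, and 23 of the 45037 probe sets tested named one of them. No member was named by a probe set that listed several genes, so all probe sets of the members could be used.

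The tissue came from 20 male B6C3F1 mice, first-generation hybrids of B6 and C3H parents that were kept 1 to a cage, with 5 mice in each of 4 groups and a separate Affymetrix array for each mouse. The control diet was fed to 5-month-old mice, the young control group, and to 30-month-old mice, the old control group. The mice of the other groups were 30 months old too and had eaten a tocopherol diet since the age of 15 months. One diet carried α-tocopherol at 1000 mg/kg and the other carried 500 mg/kg of α-tocopherol together with 500 mg/kg of γ-tocopherol. The total of added tocopherol was therefore equal in both diets and the α-tocopherol in them was not. The amount of vitamin E in the control diet is not given in the labels. The series text can be read as 500 mg/kg for either supplement, and the doses above are those of the treatment labels.

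Vitamin E is a family of fat-soluble tocopherols and tocotrienols that travel in lipoproteins and protect membrane lipids from oxidation, and γ-tocopherol lacks a methyl group on the ring that α-tocopherol carries. Cells take it up with lipoprotein lipids through lipases and receptors of the LDL-receptor and scavenger-receptor families, and the liver's α-tocopherol transfer protein, the product of Ttpa, selects the α form for return to the blood. Forms that are not selected are shortened from the side chain after hydroxylation by enzymes of the cytochrome P450 4F family. Loss of the transfer protein causes vitamin E deficiency with degeneration of nerve cells.

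The deposited signals had a trimmed mean of 1000 on every array, so only changes relative to the rest of the transcripts on an array can be seen. The defining neocortex genes Tbr1, Cux2, Rorb and Neurod6 had medians over the 20 arrays of 2604, 1375, 680.5 and 2408, and the striatal gene Drd2 had a median of 2245. The array measures differed between groups beside the age comparison. Although the trimmed mean was equal, the median signal per array was 316.1 to 331.2 in young control and 283.7 to 313.3 in old control mice. It was 280.3 to 317.7 with α-tocopherol and 292.2 to 331.5 with the mixture. Fits with equal array medians are among the alternative settings given below. The ratio of the 3' to the 5' β-actin probe sets, a measure of RNA length, was 1.42 to 1.74 in young control and 1.73 to 2.52 in old control mice, against 1.43 to 2.36 with α-tocopherol and 1.22 to 1.60 with the mixture. Ttr, an abundant transcript of choroid plexus, ranged from 8129 to 50082 in old control and from 26339 to 39668 in young control mice.

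The members fell into bright and dim probe sets, which set how well each gene was measured. Of the 23 probe sets 16, from 7 genes, were in the top 60% of all probe sets by mean signal, which began at a signal of 184. Below it lay the single Cyp4f14 probe set, both of Nr1i2, all 3 of Cd36 and 1 of 6 for Vldlr. Ttpa lay just above the limit, with a mean of 257 over all mice. The Affymetrix detection calls were not used here, so a dim probe set is not called absent or present, and signals of different probe sets do not rank the amounts of their transcripts.

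**Figure D1:**
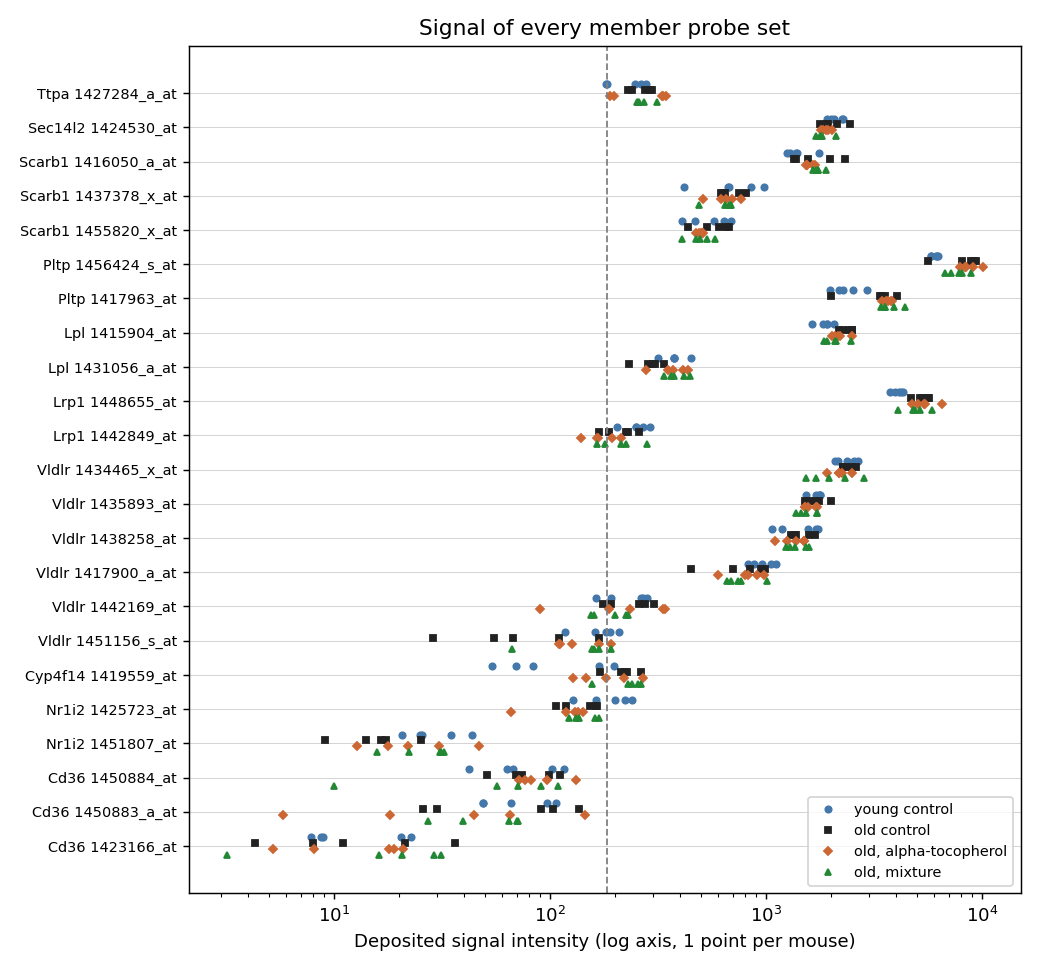
Deposited signal intensity (x axis, log scale) of each of the 23 probe sets (y axis), with 1 point per mouse and a shape and colour for each of the 4 groups of 5 mice. The dashed line marks the signal of 184 where the top 60% of all probe sets begins. Both Pltp probe sets and the brighter Lrp1 probe set lie farthest right, the dimmer Lrp1 probe set lies about the line, and those of Nr1i2 and Cd36 lie left of the line in nearly all mice.

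The first comparison asked which members differ with age, because the diets were given to old mice. In old control mice Pltp on both probe sets, Lpl and Lrp1 on the brighter of 2, and Cyp4f14 on its only one were higher than in young control mice, by 1.27- to 1.96-fold, and 1 dim probe set of Vldlr was lower. These were 6 of the 23 probe sets (26.1%), from 5 genes, at an adjusted p under 0.05 in limma, where 10.8% of all probe sets tested passed. By direction, 5 were higher and 1 lower, beside 5.17% and 5.66% of all probe sets. At an unadjusted p under 0.05 there were 9 of 23, beside 26% of all. With the bright probe sets alone, 4 of 16 (25%) passed, beside 15.4% of the top 60% of the array. Groups that did not overlap were found for 2 of 23 probe sets (8.7%), beside 10.2% of all probe sets. The median difference over the members was 0.03 on the log2 scale and that over all probe sets was -0.08. Members were not chosen at random, so these shares are a description only.

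Pltp, the phospholipid transfer protein that moves phospholipids and tocopherol between lipoproteins and membranes, was measured by a pair of bright probe sets. On its brighter probe set, 1456424_s_at, the 5 young control mice had signals of 6075, 6144, 5757, 5775 and 6255 and the old control mice 9174, 9317, 5619.8, 8853 and 8038. The 4 highest old control mice stood above every young mouse, and old control mouse 3 stood below all of them. The difference was 0.43 ± 0.11 on the log2 scale (SE, n = 5 per group), a 1.34-fold rise with an adjusted p of 0.014 in limma. The suffix of this probe set marks possible cross-hybridisation with related transcripts. Suffixes of this kind, _s_at or _x_at, stand on 5 member probe sets. The others are Vldlr 1434465_x_at and 1451156_s_at and Scarb1 1437378_x_at and 1455820_x_at.

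The second Pltp probe set, 1417963_at, read 2926, 2275, 2178, 2524 and 1971 in young control and 3422, 4039, 2002, 3529 and 3364 in old control mice. It rose by 0.43 ± 0.13 (adjusted p = 0.0402), and the same old control mouse, number 3, was again the exception. Among all 15 old mice of the 3 diets, 14 were above every young mouse on each of these probe sets. The correlation of the probe sets over the 20 arrays was 0.83, which includes the age difference they share.

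Lpl, lipoprotein lipase, frees fatty acids from lipoprotein particles and passes tocopherol to cells as it does so. Its brighter probe set, 1415904_at, read 1629, 2049.6, 1901, 1823 and 1903 in young control and 2419.6, 2165, 2497, 2259.9 and 2489.6 in old control mice. Every old control mouse was above every young mouse, and the rise was 0.35 ± 0.08 or 1.27-fold (adjusted p = 0.00859). The dimmer Lpl probe set, 1431056_a_at, went the other way without passing the threshold, with means of 377 ± 47.6 and 291 ± 39.1 (SD, n = 5 each) and a difference of -0.36 ± 0.14 (adjusted p = 0.117). The readings of Lpl therefore depend on the probe set, and over the 20 arrays they correlated at -0.43.

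Lrp1, the large endocytic receptor for lipoproteins that carry apolipoprotein E, also rose. Its probe set 1448655_at read 4302, 4108, 3931, 4196 and 3726 in young control and 5649, 5155, 4654, 5316 and 5591 in old control mice. The groups did not overlap, and the rise was 0.38 ± 0.09 or 1.3-fold (adjusted p = 0.00909). Of all 15 old mice 14 were above every young mouse, the exception being mixture mouse 5. The dimmer Lrp1 probe set 1442849_at had a difference of -0.23 ± 0.18 (adjusted p = 0.439) and correlated with the brighter one at -0.54 over the 20 arrays.

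**Figure D2:**
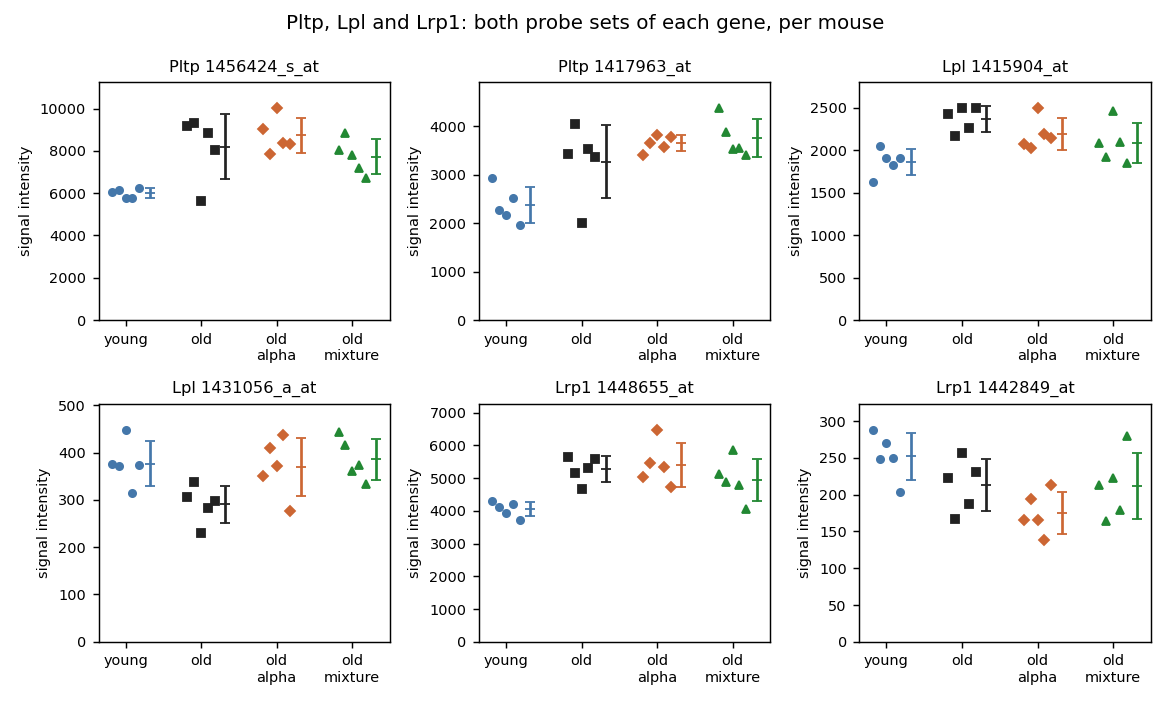
Signal intensity (y axes, linear, from 0) of both probe sets of Pltp, Lpl and Lrp1 in each mouse, by group (x axes); bars give the mean and SD of 5 mice. The Pltp panels and the brighter Lpl and Lrp1 panels show old control mice above young mice, apart from old control mouse 3 for Pltp, and the dimmer Lpl and Lrp1 panels do not.

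Several tissue measures moved with these rises. Each marker sum adds the linear signals of the brightest probe set per gene, so the most abundant transcripts weigh most in it. The summed signal of 10 astrocyte markers was 82760 to 89420 in young control and 116900 to 136100 in old control mice, and 9 of the 10 had a probe set that rose and 1 (Gja1) also had one that fell. The sum of 10 microglia and macrophage markers was 13700 to 14330 and 19490 to 21420, with probe sets of 6 genes higher and of 2 lower. The sum of 9 oligodendrocyte markers was 66200 to 79290 and 85930 to 103400, with 4 higher. That of 10 neuron markers was 162700 to 165700 and 179700 to 212700, with 5 higher and 3 lower. Rbfox3 and Camk2a are counted both ways, since different probe sets of each rose and fell. The sum of 9 endothelial markers was 11310 to 12990 and 12390 to 13810, with 1 higher. Those of choroid plexus were 28830 to 42960 and 10690 to 52620, with 1 of 10, Kl, lower, and a median difference of -0.61 over 17 probe sets. By probe set, 11 of 32 astrocyte, 7 of 14 microglia, 9 of 25 oligodendrocyte, 6 of 24 neuron and 2 of 15 endothelial ones were higher. Lower were 1 astrocyte, 2 microglia, 3 neuron and 1 of 17 choroid plexus probe sets. Over all probe sets 5.17% were higher and 5.66% lower. The part of these cell types in the rises of Pltp, Lpl and Lrp1 was not tested, apart from the Ttr signal. In bulk tissue, fewer or more cells of a type and less or more RNA per cell cannot be told apart. With the Ttr signal of each mouse as a covariate, the differences were 0.53 and 0.56 for the Pltp probe sets, 0.35 for Lpl and 0.40 for Lrp1, all with an adjusted p of 0.0234 or less in limma.

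The calls were narrower when the β-actin ratio entered the fit. The differences then were 0.47 and 0.63 for Pltp, 0.33 for Lpl and 0.40 for Lrp1, with adjusted p of 0.0588, 0.0305, 0.0752 and 0.0505, so only the second Pltp probe set passed. The ratio hardly overlapped between young and old control mice (1.42 to 1.74 and 1.73 to 2.52), so this fit cannot separate RNA length from age well. Without old control mice 3 and 5, a pair left out with earlier results known, Pltp differed by 0.60 and 0.63 and Lrp1 by 0.41 (adjusted p = 0.00116, 0.00305 and 0.0243), and Lpl by 0.29 (adjusted p = 0.0691). Mouse 3 was the lowest old control mouse on these Pltp and Lrp1 probe sets. The call of the second Pltp probe set also ended when any of 8 single mice was left out, with adjusted p of up to 0.108, which was reached without old control mouse 2.

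Cyp4f14 encodes a mouse enzyme of the cytochrome P450 4F family, which begins the breakdown of the tocopherol side chain. Its single probe set, 1419559_at, was dim, with signals of 168, 53.9, 69.6, 198 and 83.6 in young control and 263, 212, 227, 221 and 169 in old control mice. Of the old control mice 4 were above every young mouse, and the fifth was within the young range. The rise was 0.97 ± 0.28 or 1.96-fold (adjusted p = 0.0284), the largest fold among the members that rose with age, from a spread of 53.9 to 198 within the young group alone. The call ended once the β-actin ratio entered the fit (0.78, adjusted p = 0.214), with the Ttr covariate (adjusted p = 0.0908), with only both compared groups in the fit (adjusted p = 0.0681), without old control mice 3 and 5 (adjusted p = 0.0633), and without young mouse 2, 3 or 5 or old control mouse 1, 3 or 4.

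Vldlr, a receptor for apolipoprotein E and for the signalling protein reelin, had 6 probe sets, and 5 of them did not pass. The brightest, 1434465_x_at, averaged 2356 ± 246 in young control and 2391 ± 151 in old control mice, a difference of 0.03 ± 0.12 (95% interval -0.23 to 0.28). The sixth, 1451156_s_at, was the dimmest, with 161, 189, 208, 117 and 181 in young control and 28.8, 169, 54.7, 67.5 and 109.9 in old control mice. It fell by 1.02 ± 0.32 (adjusted p = 0.045), with 4 of 5 old control mice below all young mice. It was called in 13 of 31 alternative settings, and after quantile normalization its difference was -0.87 (adjusted p = 0.111).

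**Figure D3:**
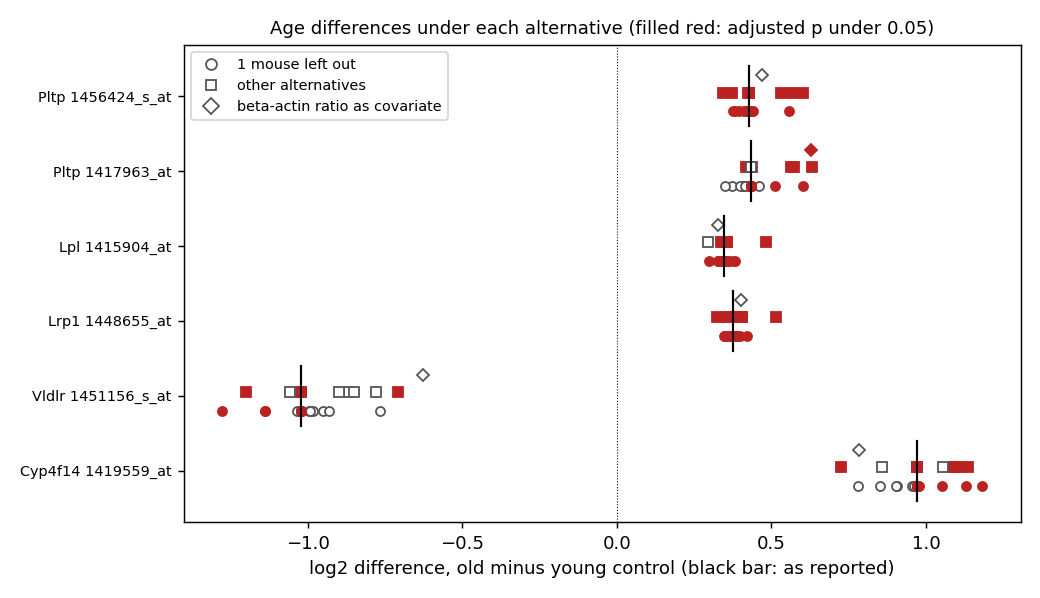
Log2 difference between old and young control mice (x axis) for the 6 probe sets that passed the threshold (y axis), as reported (black bar) and under each alternative setting. Circles leave out 1 mouse, the diamond is the fit with the β-actin ratio, squares are the remaining settings, and filled red marks an adjusted p under 0.05. No point crosses 0, and the Vldlr and Cyp4f14 rows and the second Pltp row hold many open points.

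The other members did not pass the age threshold. Ttpa had means of 231 ± 45.7 in young control and 266 ± 30.2 in old control mice, with a difference of 0.21 ± 0.19 and a 95% interval of -0.18 to 0.59. Sec14l2, a lipid carrier of the Sec14 family also known as supernatant protein factor, differed by -0.04 ± 0.08 with a narrow interval of -0.21 to 0.13, so an age change of 1.5-fold lay outside it. The sign of the Sec14l2 difference turned when arrays were set to equal medians (0.10).

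Scarb1, the HDL receptor that takes lipids up selectively, had differences of 0.25 ± 0.12 on its brightest probe set and 0.00 ± 0.17 and 0.07 ± 0.14 on the others (adjusted p = 0.179, 0.997 and 0.801). The old control mice read 2322, 1555, 1376, 1967 and 1343 on the brightest, the widest spread of any group on that probe set. Mice 3 and 5 were the lowest of them, so leaving both out had to raise the difference. It was then 0.45 (adjusted p = 0.024 in limma), a call that depends on that choice of mice. Nr1i2, the pregnane X receptor that switches on drug-metabolising enzymes and can bind vitamin E forms, had lower means in old mice on both dim probe sets, by -0.38 ± 0.22 and -0.49 ± 0.23, without passing (adjusted p = 0.295 and 0.176). Cd36, a scavenger receptor for fatty acids and oxidised lipoproteins, had differences between -0.07 and 0.07 on 3 probe sets with mean signals of 14.7 to 74.2, with an interval of -0.65 to 0.78 on the brightest of them.

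Promoter sequence was available in the RefSeq table of assembly GRCm38.p6 for 7 of the 10 members. Those of Pltp and Lrp1, which rose together with age, are shown with that of Sec14l2, which did not pass in any comparison, from 250 bases before to 50 after the annotated start. All 3 lie on the minus strand, at chr2:164857659-164857958 for Pltp, chr10:127621099-127621398 for Lrp1 and chr11:4118680-4118979 for Sec14l2. They read 5' to 3' along the gene, and capitals mark matches on either strand to GGGCGG, the GC box, and TATAAA, the TATA box.
Pltp: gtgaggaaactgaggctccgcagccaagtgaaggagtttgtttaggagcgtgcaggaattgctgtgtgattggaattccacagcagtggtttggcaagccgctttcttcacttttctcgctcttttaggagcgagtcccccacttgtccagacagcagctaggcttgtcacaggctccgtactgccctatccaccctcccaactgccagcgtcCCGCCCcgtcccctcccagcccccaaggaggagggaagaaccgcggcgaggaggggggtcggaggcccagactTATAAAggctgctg
Lrp1: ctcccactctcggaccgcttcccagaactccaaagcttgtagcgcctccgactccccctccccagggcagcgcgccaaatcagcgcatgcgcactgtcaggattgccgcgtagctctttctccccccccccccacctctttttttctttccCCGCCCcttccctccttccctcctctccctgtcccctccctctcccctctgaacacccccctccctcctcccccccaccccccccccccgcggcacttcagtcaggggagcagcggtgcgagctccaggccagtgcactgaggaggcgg
Sec14l2: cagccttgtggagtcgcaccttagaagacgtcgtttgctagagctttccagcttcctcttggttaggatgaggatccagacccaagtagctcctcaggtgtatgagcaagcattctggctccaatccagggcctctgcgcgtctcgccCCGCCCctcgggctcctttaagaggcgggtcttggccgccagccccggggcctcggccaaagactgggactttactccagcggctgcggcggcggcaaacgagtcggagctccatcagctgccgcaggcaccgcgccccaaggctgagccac
Each holds 1 GC box, written here as its reverse complement, and Pltp also holds 1 TATAAA, after the annotated start. The GC box occurred in 35.7% of the table's 32851 promoter windows and TATAAA in 13.6%. Among the other members the GC box matched in the window of Cd36 and in 1 window of Vldlr but not its other. It matched in no window of Nr1i2 or of Cyp4f14, which also rose with age. The nuclear receptor half-site AGGTCA, found in 16.3%, and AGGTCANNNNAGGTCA, the spaced repeat bound by liver X receptors, found in 0.0152%, were also searched on both strands. Neither matched these 3 windows, and among the members the half-site matched in the window of Cd36 alone. Marked matches did not overlap each other. These are letter matches in 300 bases and show no binding.

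The second comparison, α-tocopherol diet against old control diet, asked whether genes that handle the compound differed when more of it was eaten. No member passed the threshold, 0 of 23 in limma, where 0% of all 45037 probe sets passed. At an unadjusted p under 0.05 there were 2 of 23 member probe sets, beside 5.56% of all. The lowest adjusted p among the members was 0.887 and among all probe sets 0.13. The 95% intervals lay within a 1.5-fold change either way for 13 of the 23 probe sets and within 2-fold for 21, among them all 16 bright ones. No probe set of a member had groups that did not overlap, beside 0.719% of all.

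Ttpa encodes the protein that singles out α-tocopherol. The old control mice read 238, 294, 229, 291 and 276 and the α-tocopherol mice 197, 189, 334, 328 and 342. The mean was 266 ± 30.2 in old control and 278 ± 77.7 with α-tocopherol (SD, n = 5 each), and the difference of 0.03 ± 0.19 had an interval of -0.36 to 0.41. Within the α-tocopherol group, mice 1 and 2 lay below all old control mice and mice 3, 4 and 5 above all of them, so these near-equal means cover the widest spread of the 4 groups. Leaving out single mice and other settings moved the difference between -0.18 and 0.14.

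Sec14l2 read 2444, 1919, 2135, 1781 and 1928 in old control and 1929, 1789.7, 1881, 2019 and 1829.8 with α-tocopherol. All α-tocopherol mice lay inside the old control range, and the difference was -0.10 ± 0.08 with an interval of -0.27 to 0.06. Pltp averaged 8731 ± 839.5 with α-tocopherol against 8200 ± 1525 in old control mice on the brighter probe set, a difference of 0.11 ± 0.11, and 0.19 ± 0.13 on the other. All 5 α-tocopherol mice were above every young mouse on both, with 9032, 7869, 10037, 8380.5 and 8336 and 3416, 3664, 3826, 3574 and 3771.

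Lpl on the brighter probe set read 2075, 2022, 2498, 2189 and 2147 with α-tocopherol, 3 of the 5 below all old control mice and 1 just above them, and differed by -0.11 ± 0.08. The dimmer Lpl probe set differed the other way, by 0.32 ± 0.14, with 4 of 5 mice above all old control mice and an adjusted p of 0.887. Lrp1 read 5028, 5451, 6479.5, 5347 and 4714 and differed by 0.03 ± 0.09 with an interval of -0.15 to 0.21. Scarb1 differed by -0.07 ± 0.12, -0.10 ± 0.17 and -0.20 ± 0.14 on its 3 probe sets, and its brightest had an SD of 72.7 with α-tocopherol against 421 in old control mice.

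The 5 brighter Vldlr probe sets differed by -0.13 to 0.10, and the dimmest by 0.76 ± 0.32, the smallest unadjusted p of any member in this comparison (adjusted p = 0.887 in limma). Its α-tocopherol mice read 168, 191, 109.8, 111 and 126, which overlaps both control groups. Cyp4f14 had 181, 219, 127, 146 and 270 with α-tocopherol and a difference of -0.23 ± 0.28 that spanned -0.81 to 0.35. The Nr1i2 probe sets differed in opposite directions, by -0.25 ± 0.22 and 0.34 ± 0.23, and Cd36 by between -0.53 and 0.16.

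**Figure D4:**
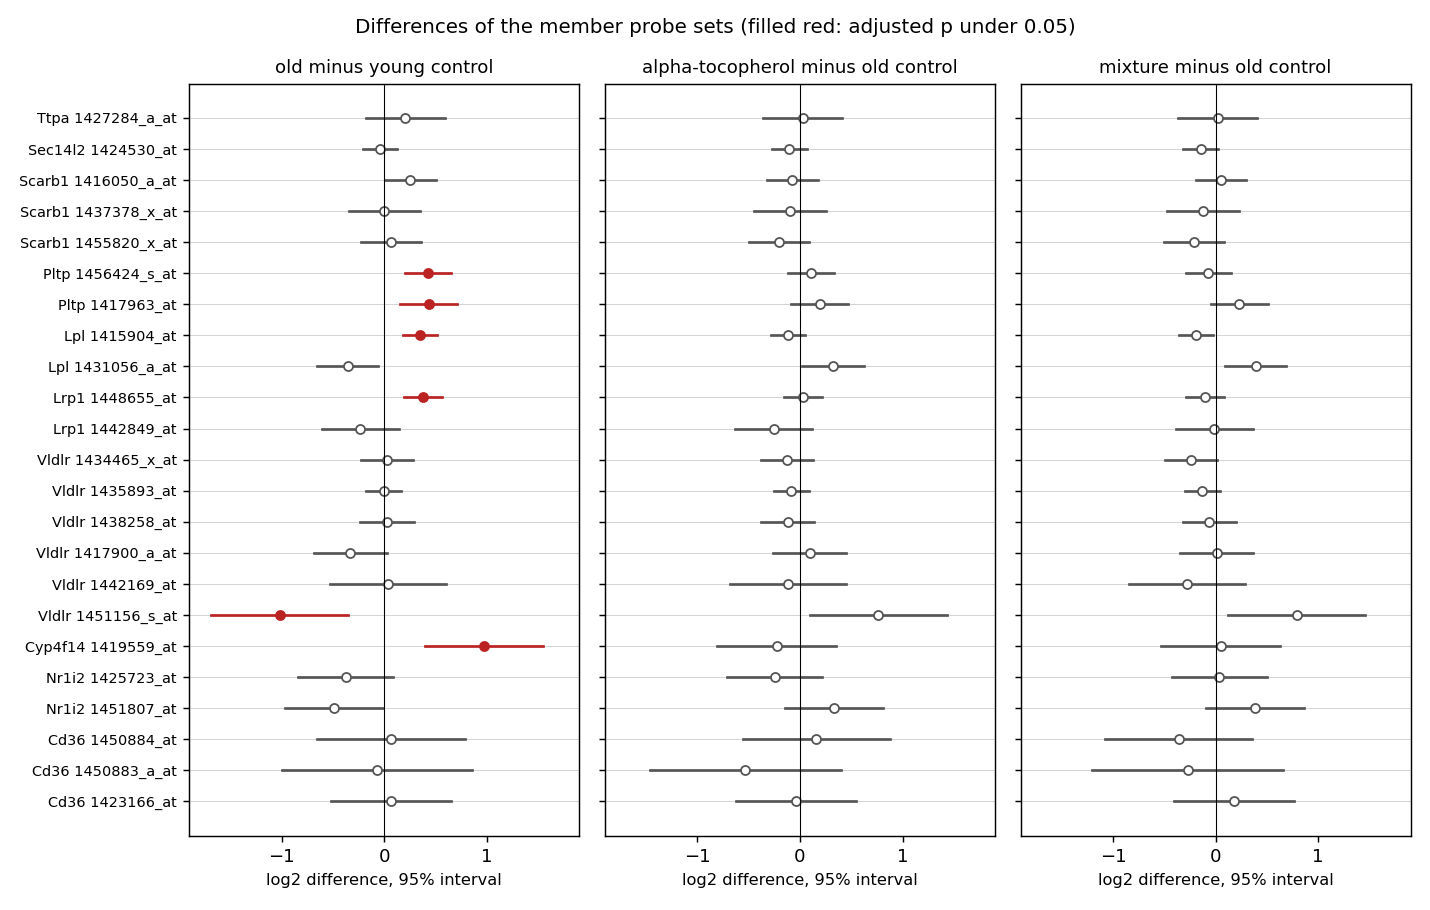
Log2 difference (x axes) with its 95% interval for each of the 23 probe sets (y axis) in the 3 comparisons with old control mice; filled red marks an adjusted p under 0.05. Filled points stand in the age panel alone, and intervals widen down the axis toward the dim Vldlr, Cyp4f14, Nr1i2 and Cd36 probe sets.

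The mixture of α- and γ-tocopherol was compared with the same old control mice, so both diet comparisons share them. Again 0 of 23 member probe sets passed, where 1.09% of all probe sets did, and 3 of 23 had an unadjusted p under 0.05, beside 14.8% of all. The lowest adjusted p among the members was 0.186 and among all probe sets 0.0181. Intervals lay within 1.5-fold for 15 of 23 and within 2-fold for 20, among them all 16 bright ones, and no member's groups failed to overlap, beside 3.93% of all probe sets.

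The smallest p among the members was that of the dimmer Lpl probe set. It read 306, 338, 231, 282 and 299 in old control and 443, 415, 361, 375 and 334 with the mixture, and 4 of the 5 mixture mice were above all old control mice. The difference was 0.39 ± 0.14 (adjusted p = 0.186). The brighter Lpl probe set had 2088, 1918, 2455, 2096 and 1854 with the mixture, 4 of 5 below all old control mice, and a difference of -0.19 ± 0.08 (adjusted p = 0.266). The gene's probe sets thus differed in opposite directions with both diets, and neither passed.

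Ttpa read 252, 257, 254, 271 and 312 with the mixture, within a narrower range than with α-tocopherol, and its difference was 0.02 ± 0.19 with an interval of -0.37 to 0.41. Its sign turned after quantile, cyclic loess and equal-median scaling, to between -0.06 and -0.05. Sec14l2 averaged 1837 ± 152 against 2042 ± 258 in old control mice, a difference of -0.15 ± 0.08 (adjusted p = 0.421). Pltp read 8052, 8839.8, 7814, 7196 and 6707 and 4381, 3886, 3539, 3554 and 3411, and its probe sets differed by -0.07 ± 0.11 and 0.23 ± 0.13.

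Lrp1 read 5125, 4864, 5859.6, 4778 and 4068 with the mixture, which included both the lowest and the highest of the 10 mice compared, and differed by -0.10 ± 0.09. Scarb1 differed by 0.05 ± 0.12, -0.12 ± 0.17 and -0.21 ± 0.14. The brightest Vldlr probe set had its widest spread with the mixture, 2325, 1950, 2826, 1704 and 1529, and a difference of -0.24 ± 0.12 (adjusted p = 0.362), and the dimmest had a difference of 0.79 ± 0.32 (adjusted p = 0.241). Cyp4f14 had 254, 228, 262, 239 and 156, with 4 of 5 mice inside the old control range, and a difference of 0.05 ± 0.28. Nr1i2 differed by 0.04 ± 0.22 and 0.39 ± 0.23, and Cd36 by between -0.36 and 0.18.

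**Figure D5:**
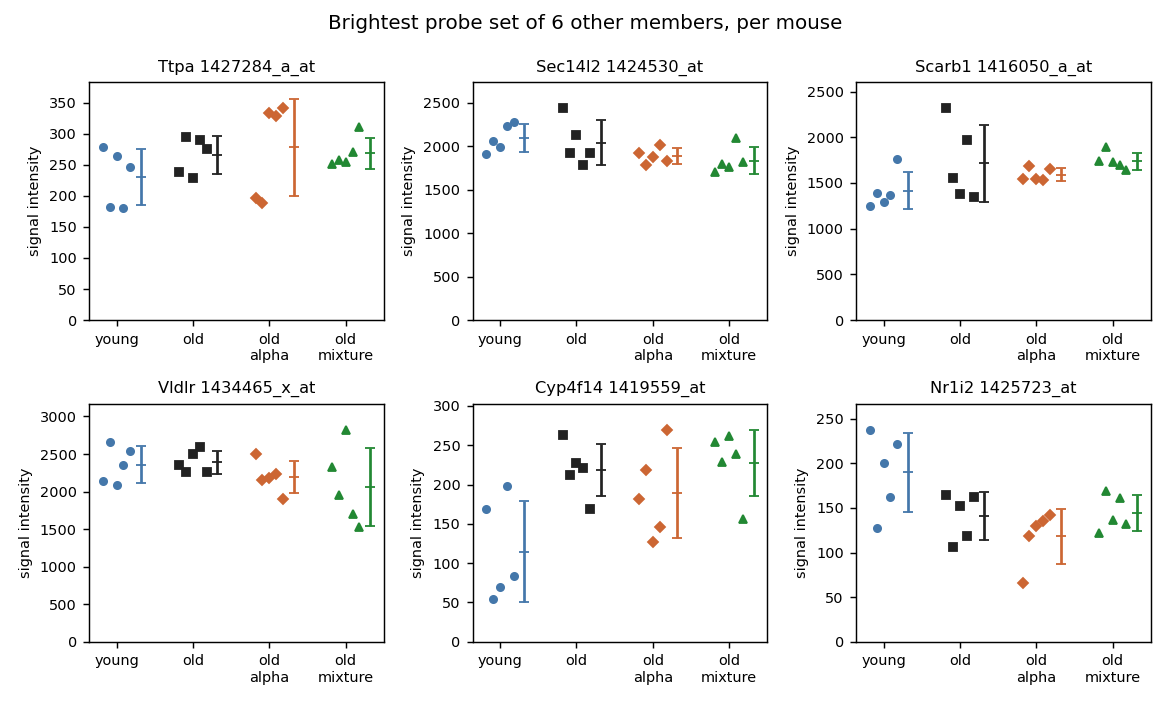
Signal intensity (y axes, linear, from 0) of the brightest probe set of Ttpa, Sec14l2, Scarb1, Vldlr, Cyp4f14 and Nr1i2 in each mouse, by group (x axes); bars give the mean and SD of 5 mice. The α-tocopherol mice form a low pair and a high trio for Ttpa, and the young mice lie mostly below the old control mice for Cyp4f14.

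The supplements were also compared with each other, a single pair at the same total dose, in which the γ form replaced part of the α form. No member passed (0 of 23, where 0% of all probe sets passed in limma), and none had an unadjusted p under 0.05, beside 7.13% of all. No member's groups failed to overlap, beside 1.01% of all probe sets. The lowest adjusted p among the members was 0.774. Ttpa differed by -0.01 ± 0.19 (mixture minus α-tocopherol, interval -0.39 to 0.38), Sec14l2 by -0.04 ± 0.08 (-0.21 to 0.12), Lrp1 by -0.13 ± 0.09 (-0.31 to 0.05) and the brighter Lpl probe set by -0.07 ± 0.08 (-0.24 to 0.09). Cyp4f14 differed by 0.28 ± 0.28, and its interval of -0.30 to 0.85 reached a 1.81-fold higher level. Intervals lay within 2-fold for 21 of 23 probe sets and within 1.5-fold for 15.

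The group means of the brightest probe set of each of the 7 bright members were put in order. Pltp had 6001 ± 224 in young control, 7722 ± 818 with the mixture, 8200 ± 1525 in old control and 8731 ± 839.5 with α-tocopherol (SD, n = 5 each). Lrp1 had 4053 ± 228, 4939 ± 647, 5273 ± 400.3 and 5404 ± 667 in the same order of groups. Lpl had 1861 ± 153 in young control, then 2082 ± 234 with the mixture, 2186 ± 186 with α-tocopherol and 2366 ± 148 in old control mice. In these 3 the old groups did not differ from each other past the threshold. Sec14l2 ran from 1837 ± 152 with the mixture through 1890 ± 89.4 with α-tocopherol and 2042 ± 258 in old control to 2094 ± 159 in young control mice, and no tested pair of groups passed the threshold. Nor did any for Ttpa, which had its lowest mean in young control (231 ± 45.7) and its highest with α-tocopherol (278 ± 77.7), for Scarb1, which ran from 1412 ± 202 in young control to 1739 ± 92.9 with the mixture, or for Vldlr, which ran from 2067 ± 519 with the mixture to 2391 ± 151 in old control mice. The order depended on the probe set. On the second Pltp probe set the mixture had the highest mean (3754 ± 392), and on the dimmer Lpl probe set old control had the lowest (291 ± 39.1).

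Other genes of tocopherol handling were counted from 6 lists, which named 70 genes and had 59 on the array, on 120 probe sets. With age, 12 of the 59 genes had a probe set that rose and 5 one that fell, 16.7% of the probe sets beside 10.8% of all. A gene is counted here when 1 of its probe sets passed, and its other probe sets can differ. Of 10 lipoprotein receptor genes 4 rose, and Npc1l1, the sterol and tocopherol uptake protein of the gut, fell by 0.38. Those that rose were the sorting receptors Sort1 (0.67 ± 0.15, adjusted p = 0.00762) and Sorl1 (0.35 ± 0.09), Lrpap1, the chaperone of Lrp1 (0.26 ± 0.07), and Scarb2, a lysosomal membrane protein. The call of Lrpap1 ended after quantile and cyclic loess normalization and with the β-actin covariate, and that of Sort1 without old control mice 3 and 5 (adjusted p = 0.0643).

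Of 9 efflux genes, Npc2 and Npc1, which together export cholesterol from lysosomes, rose by 0.85 ± 0.10 and 0.42 ± 0.10 (adjusted p = 3.01e-05 and 0.00763). Of 12 lipase and particle genes Apoe, the main apolipoprotein of brain particles, rose by 0.35 ± 0.08 and dim Apoa1 by 1.09 ± 0.33, and Sel1l, needed for the maturation of lipoprotein lipase, and dim Apob fell by 0.43 and 0.94. The fall of Sel1l was on 1 of 5 probe sets, and the brightest of them differed by 0.18 ± 0.07 (adjusted p = 0.0828). The Apoe call ended after quantile and cyclic loess normalization and with the β-actin covariate (0.34, adjusted p = 0.0753). Of 10 nuclear receptor genes the partner receptors Rxra (0.45 ± 0.12) and Rxrb (0.33 ± 0.09) and the coactivator Ppargc1a (0.35 ± 0.07) had a probe set that rose, and none had one that fell. The other Rxra probe sets differed by -0.28 ± 0.20 and -0.47 ± 0.24, and 1 of the 5 Ppargc1a probe sets by -0.39 ± 0.16, with every old control mouse below every young mouse (adjusted p = 0.11).

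Of 8 Sec14-family and binding genes Ttpal had 1 probe set that rose, by 0.39 ± 0.11, and Afm, afamin, and Clvs1 each had 1 that fell, by 0.81 and 0.95. For all 3, other probe sets differed the opposite way without passing. Ttpal 1429683_at differed by -0.83 ± 0.28 (adjusted p = 0.0605), Afm 1427561_a_at by 0.83 ± 0.38 (adjusted p = 0.166) and the brightest Clvs1 probe set by 0.13 ± 0.11 (adjusted p = 0.48). Of 10 catabolism genes none passed, and the smallest p was that of Cyp3a11 (-0.57 ± 0.25, adjusted p = 0.147). The calls of Ttpal, Clvs1, Npc1l1, Apoa1 and Apob each ended in 9 or more alternative settings.

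With the α-tocopherol diet 0 of the 59 genes passed in limma, and with the mixture 1 did, 0.833% of the probe sets beside 1.09% of all. This was Abcb1a, which encodes the efflux pump P-glycoprotein of the blood-brain barrier. It read 424.5, 550.7, 366.8, 383.4 and 479.2 in old control and 641.6, 613.1, 801.9, 667.4 and 580.9 with the mixture, with no overlap, a rise of 0.57 ± 0.14 (adjusted p = 0.0439). With α-tocopherol it read 420.4, 566.6, 518.7, 499.8 and 656.5. The call held in 11 of 32 alternative settings, and ended among others after quantile normalization (0.51, adjusted p = 0.117) and with the β-actin covariate (0.29, adjusted p = 0.876). The β-actin ratio did not overlap between these groups (1.73 to 2.52 in old control and 1.22 to 1.60 with the mixture). The covariate fit therefore cannot separate RNA length from diet. The other, brighter Abcb1a probe set differed by 0.02 ± 0.14 (adjusted p = 0.97). Markers moved in the same comparison. The neuron sum was 179700 to 212700 in old control and 152300 to 175000 with the mixture, with no overlap. The oligodendrocyte sum was 85930 to 103400 and 73090 to 85900, ranges that only just did not overlap. The median difference was -0.08 over the 24 neuron probe sets and 0.10 over the 25 oligodendrocyte probe sets, so the oligodendrocyte list did not fall as a whole. All 4 oligodendrocyte probe sets that were lower belonged to Mbp. The endothelial sum was 12390 to 13810 and 11490 to 14360. The choroid plexus sum was 10690 to 52620 and 32270 to 39340, with a median difference of 0.71 over 17 probe sets, of which none passed. Of the neuron markers Snap25 and Rbfox3 had probe sets that were lower, of the oligodendrocyte markers Mbp lower and Cnp higher, and of the microglia markers P2ry12 higher, while none of the endothelial or astrocyte markers passed. Their part in the rise of Abcb1a was not tested.

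For the 7 bright members, the genes with the most similar signals over the 20 arrays were listed as a description, since group differences enter these correlations. Lrp1 was closest to Mgll (r = 0.97, and 0.93 for deviations from the group means), Flywch1 (0.95) and Maf (0.93). Pltp was closest to Rasl10b (0.90), Fkbp9 (0.88) and Tbcd (0.87), and Lpl to Fam107a (0.88), Chst15 (0.86) and Pogk (0.85). Vldlr was closest to Vps53 (0.89), Sec14l2 to Prkab2 (0.86), Scarb1 to Agbl4 (0.81) and Ttpa to Nup210 (0.78, and 0.79 for deviations).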

How the data were processed

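Poly(A) RNA of neocortex was extracted with TRIZOL, primed with oligo-dT, labelled with biotin as cRNA and hybridised to Affymetrix arrays, per the labels' protocols. The deposited values are linear signal intensity per probe set, made with GCOS, per the submitters' processing notes. The sources used here do not name the background and summary steps or the genome build behind the array annotation.

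Every array had a 2% trimmed mean of 1000, so the values were used as deposited, as log2(signal + 16), a scale that understates the change of dim genes. Of 45101 probe sets 64 controls were left out. Among the rest, the platform annotation gave 1 symbol for 34945 probe sets, several for 932 and none for 9160. Symbols of 34741 were updated by gene identifier through RefSeq (GRCm38.p6), and 204 kept the annotation's symbol. Members were all probe sets with a member as their single symbol.

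Each probe set was tested with limma 3.58.1 in R 4.3.3 (lmFit, contrasts, eBayes with an intensity trend), with 1 fit for all 20 arrays. The two-sided p-values were adjusted by Benjamini-Hochberg over all 45037 probe sets of a comparison and called under 0.05. SE are those of the contrasts with n = 5 mice per group, and intervals cover 95%. Each mouse had its own array, so p-values rest on the spread between mice, in which animal and array variation cannot be separated. The number of arrays limits the precision. Correlations between arrays were 0.947 to 0.973, and no arrays were identical. The procedure was tested on simulated data.

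The members, the gene lists, the rule for named genes and the alternatives were chosen with earlier results of these data known. The rule named all members, up to 4 genes per list with the smallest p past the threshold (the 2 with the smallest p where none passed), and the 3 genes most like each bright member. For Scarb2 the list counts alone are given with age. Beside the marker lists described with age, lists for neocortex, meninges, hippocampus, striatum, cerebellum and blood were counted. With age 2 of 7 neocortex genes had a probe set that rose and none one that fell. Of the meninges and fibroblast genes 1 rose and 1 fell, of 10, and of the cerebellum genes 1 of 6 fell. None of 6 hippocampus, 5 striatum and 2 blood genes passed. Alternatives covered the pseudocount, a filter on dim probe sets, the brightest probe set per gene, 3 normalizations, the samples fitted, the replicate number as a block, the intensity trend, covariates (β-actin 3'/5' ratio, Ttr signal) and leaving out mice.

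Samples with the same number in different groups are different animals. The correlations of their deviations from the group means ran from -0.11 to 0.20, and in no comparison were more than 2 of 5 pairs above 0.1, so the numbers were not taken as pairs.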

Additional observations from a re-analysis of the deposited data

Results flagged for a closer look

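Among 92 groups of 5 mice, one for each member probe set and diet group, 5 held a mouse whose gap to the nearest other mouse, as a share of the group's range on the log2(signal + 16) scale, was above 0.71, where chance gives about 4.6. All 5 were the lowest mouse of their group. Old control mouse 3 had 2002 for Pltp on 1417963_at and the next mouse 3364 (share 0.739). With the mixture, mouse 5 had 489 for Scarb1 on 1437378_x_at and the next 647 (0.814), and 156 for Cyp4f14 with the next at 228 (0.727). Mixture mouse 4 had 66.8 for the dimmest Vldlr probe set and the next 156 (0.794). With α-tocopherol, mouse 1 had 65.7 for Nr1i2 on 1425723_at and the next 118 (0.75). On the linear signals the shares were 0.669 for Pltp, 0.788 for Scarb1, 0.678 for Cyp4f14, 0.713 for Vldlr and 0.685 for Nr1i2, so those of Pltp, Cyp4f14 and Nr1i2 were then below 0.71.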

How the results depend on the processing

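Over 33 alternatives, the diet comparisons gave 0 member probe sets past the threshold in every one, as did the comparison of the supplements. None of the 6 probe sets called with age, from 5 members, turned its sign. With age 42 of 736 single values lost their call and 1, Scarb1 without old control mice 3 and 5, gained one. Those mice were the lowest of the old control group on that Scarb1 probe set. Uncalled differences turned sign 54, 27, 51 and 36 times in the age, α-tocopherol, mixture and supplement comparisons. The count of member probe sets called with age went from 6 to 3 with the brightest probe set per gene, of 7, or with the 2 groups alone, to 1 with the β-actin covariate, and to 3 to 6 with 1 mouse left out. The count over all probe sets with age went from 4875 to 3039 with the filter and the brightest probe set per gene, where fewer were tested, 1517 with the β-actin covariate, 2640 without old control mice 3 and 5, and 3451 to 5166 with 1 mouse left out. With α-tocopherol it went from 0 to 3 without old control mice 3 and 5, and to 0 or 1 with 1 mouse left out, the 1 without old control mouse 1. With the mixture it went from 492 to 970 with the top 60% filter, 65 with quantile and 89 with cyclic loess scaling, 9 with the 2 groups alone, 0 without the intensity trend, 0 with the β-actin covariate, 165 with the Ttr covariate, 3 without old control mice 3 and 5, and 10 to 676 with 1 mouse left out, the 10 without mixture mouse 5. The cause of these moves was not tested.

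With equal array medians the median difference of all probe sets with age went from -0.08 to 0.05 and the share of calls that were higher from 47.7% to 82.5%; for the mixture that share went from 33.3% to 10.5%, and after cyclic loess to 44.9%. With the replicate number as a block 5064 probe sets and 6 member probe sets were called with age, 0 and 0 with α-tocopherol, 661 and 0 with the mixture, and 0 and 0 between the supplements. With 5 mice per group and dim signals, a change of 1.5-fold in Cyp4f14, Nr1i2 or Cd36 could not be resolved well. With both diets the log2 intervals of Cyp4f14 reached past 1.5-fold and lay within 2-fold (-0.81 to 0.35 and -0.53 to 0.63). Those of Cd36 1450883_a_at and Vldlr 1451156_s_at reached past 2-fold.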

Other observations

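Some genes of the wider lists had no overlap or small p in the diet comparisons without passing the threshold, and are given as values. With the mixture, Ttpal, a relative of the α-tocopherol transfer protein, differed from old control by 1.01 ± 0.28 on 1429683_at, with every mixture mouse above every old control mouse (adjusted p = 0.0748 in limma). On that probe set old control mice were lower than young mice by 0.83 ± 0.28 (adjusted p = 0.0605). The log2 means were 8.37 in young control, 7.54 in old control and 8.56 with the mixture. It differed by 0.63 ± 0.28 with α-tocopherol (adjusted p = 0.887). The brightest Ttpal probe set, 1428457_at, differed by 0.00 ± 0.11 with the mixture (interval -0.23 to 0.23). Sel1l, lower with age by 0.43, was higher by 0.39 ± 0.10 with the mixture (adjusted p = 0.0507) and by 0.28 ± 0.10 with α-tocopherol (adjusted p = 0.859) on the same probe set, 1425188_s_at. The brightest Sel1l probe set differed the other way with both diets, by -0.15 ± 0.07 and -0.16 ± 0.07 (adjusted p = 0.309 and 0.887). These comparisons share the old control mice, so a low or high old control value enters each of them.

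Between the supplements, Apoe, the apolipoprotein of brain lipid particles, was lower with the mixture by 0.29 ± 0.08 with no overlap (adjusted p = 0.409), a difference whose sign turned after quantile normalization (0.07). Scarb2 on 1460235_at was higher by 0.27 ± 0.08 with no overlap (adjusted p = 0.409), and its brighter probe set differed by -0.13 ± 0.09 (adjusted p = 0.822). The mixture was also higher for Rxra on 1425762_a_at, by 0.60 ± 0.20 (adjusted p = 0.478). None of the 120 probe sets passed in that comparison, where none of the 45037 did either, with 7.13% of them at an unadjusted p under 0.05.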
